A study of Mus musculus with 4 samples.

Results

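The genes described here are 10 markers of nerve cells: Uchl1, Syp, Syt1, Snap25, Tubb3, Gap43, Nefl, Nefm, Stmn2 and Prph. They were taken by symbol from the gene tables of 2 mouse cell lines as neuronal cytoskeleton, synaptic vesicle and pan-neuronal genes, and all 10 had a row among the 23358 rows. Both lines are clones grown from progenitors of interstitial cells of Cajal (ICC), which pace the contractions of gut muscle, and polyadenylated RNA was sequenced from 2 libraries of each. The line 2xSCS2F10 was derived from gastric tunica muscularis (the muscular coat of the stomach) of the strain C57BL/6J and was kept at 37 °C in NeuroCult neural stem cell medium supplemented with 5% chick embryo extract. Cells of 2xSCS70 were derived from this tissue of H-2Kb-tsA58 mice, which carry a thermolabile large T antigen driven by the interferon-inducible H-2Kb promoter. It was kept in the same basal medium, with no extract named, at 39.5 °C and with no interferon-gamma, conditions under which that antigen is known to be unstable. Line, strain, transgene, temperature and extract changed together, so their parts in any difference cannot be told apart, and each line stands for 1 clone. The labels do not say that the libraries of a line were separate cultures, so the spread behind every p-value is that between libraries and may be technical.

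Nerve cells release transmitter from vesicles that dock through SNARE proteins and fuse when a synaptotagmin senses calcium. Their axons are filled with neurofilaments and with microtubules that hold neuron-specific tubulin, and growth cones carry Gap43 and Stmn2. In other cells many such genes are held down by the repressor REST, which binds the RE1 element and recruits the CoREST proteins, while related genes without the neuronal restriction do the same work. In the gut wall, enteric neurons lie beside interstitial cells of Cajal and are often found by staining for Uchl1, a ubiquitin hydrolase that is also made by some other cells. The medium named above is made for neural stem cells. These are background facts and not results of the libraries.

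Promoter sequence was examined for the members that moved in opposite ways between the lines. Windows from 250 bases before to 50 bases after a start site, taken from RefSeq on GRCm38.p6, were found for 5 of the 10 members, with 6 windows in all, since Syt1 had 2. The windows of 3 genes are shown: Uchl1 and Syt1, which were lower in 2xSCS70, and Tubb3, which was higher. All are written 5′ to 3′ in the direction of the gene, in lower case, with capitals for the letters of an RE1 half-site.
Uchl1, chr5:66675871-66676170, plus strand: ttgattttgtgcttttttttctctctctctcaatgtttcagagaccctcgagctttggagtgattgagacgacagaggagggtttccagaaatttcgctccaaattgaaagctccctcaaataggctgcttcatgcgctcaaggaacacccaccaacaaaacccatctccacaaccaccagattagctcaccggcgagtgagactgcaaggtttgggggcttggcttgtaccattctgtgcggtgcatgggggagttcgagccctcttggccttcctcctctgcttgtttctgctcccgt
Syt1, chr10:109010926-109011225, minus strand: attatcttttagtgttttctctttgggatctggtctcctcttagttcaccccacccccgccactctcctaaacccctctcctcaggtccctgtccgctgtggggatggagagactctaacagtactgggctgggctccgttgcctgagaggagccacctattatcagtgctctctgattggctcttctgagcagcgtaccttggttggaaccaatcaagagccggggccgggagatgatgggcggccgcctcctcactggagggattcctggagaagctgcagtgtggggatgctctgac
Tubb3, chr8:123411303-123411602, plus strand: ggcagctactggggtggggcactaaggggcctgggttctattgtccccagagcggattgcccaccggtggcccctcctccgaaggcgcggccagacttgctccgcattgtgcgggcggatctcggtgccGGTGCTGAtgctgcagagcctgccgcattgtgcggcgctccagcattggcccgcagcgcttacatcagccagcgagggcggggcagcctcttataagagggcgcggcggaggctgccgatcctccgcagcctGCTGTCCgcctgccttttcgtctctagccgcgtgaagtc
The letters TCAGCACC (left half-site) and GGACAGC (right half-site) were searched on both strands, and the matches did not overlap. The left half-site was in 542 of 32851 promoter windows (1.65%) and the right half-site in 2155 (6.56%). Of the 6 windows of the members, only that of Tubb3 held either. A left half-site match lay 121 bases before the start site and a right half-site match 12 bases after it, both on the reverse strand. Read on that strand the right match came first, far from the left one, so they do not form a joined RE1 element. GC content was 50.7% in the Uchl1 window, 56.7% in the Syt1 window shown and 67.3% in the Tubb3 window, against a median of 52.7% over all windows. The other Syt1 window was at 44.0%, that of Prph at 64.7% and that of Syp at 59.0%. A match is a run of letters and not a measured binding site, and a window without one says only that these letters are not there.

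Only Uchl1 and Tubb3 reached 1 RPKM, the deposited read level per gene length and library reads, in both libraries of a line, and they did so in both lines. Uchl1 was abundant in 2xSCS2F10 and about 18.9-fold lower in 2xSCS70, while Tubb3 was 1.84-fold higher in 2xSCS70. The other 8 members lay below 1 RPKM in every library. Of these, Syt1 and Gap43 were higher in 2xSCS2F10, Prph and Syp were higher in 2xSCS70, Snap25 had too few fragments to be tested, and Nefl, Nefm and Stmn2 were at or within 1 fragment of 0. Uchl1 made up 98.2% and 98.4% of the summed RPKM of the 10 members in the libraries of 2xSCS2F10, but 69.8% and 63.8% in those of 2xSCS70. The sum itself was 190.8 and 145.8 RPKM in the first line and 18.2 and 12.4 RPKM in the second. In bulk RNA, a smaller share of cells that make a transcript and less of it per cell cannot be told apart.

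**Figure D1:**
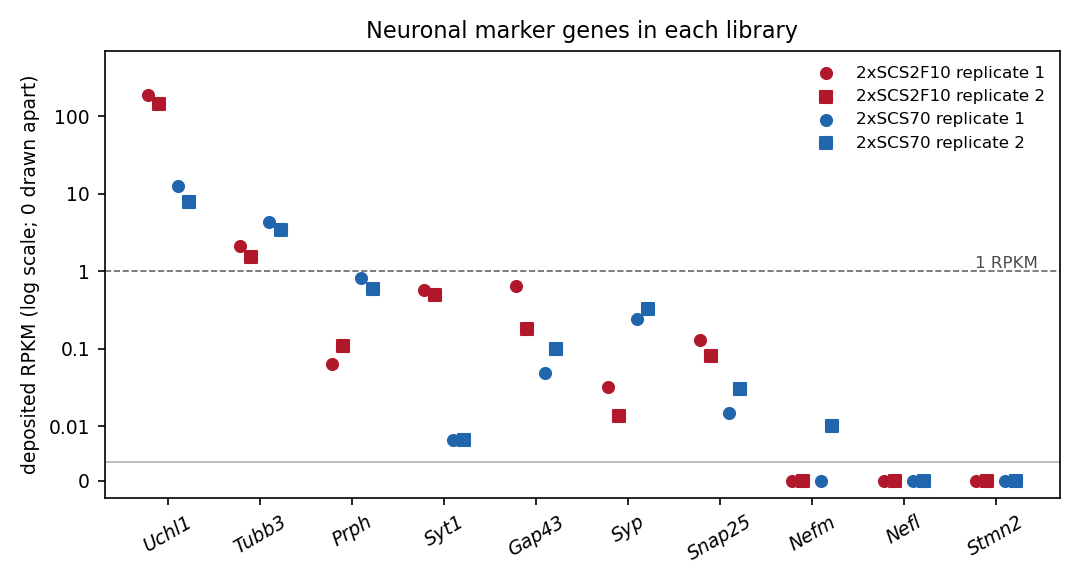
Deposited RPKM (log axis, with 0 drawn apart under the grey line) of each member in each library, red for 2xSCS2F10 and blue for 2xSCS70, circles for replicate 1 and squares for replicate 2. Uchl1 lies far above the others in 2xSCS2F10 (187 and 143 RPKM), and only Uchl1 and Tubb3 lie above the dashed line at 1 RPKM.

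Libraries held between 20159986 and 24485632 fragments in genes, and since all deposited counts were even, 1 fragment was taken as 2 counts. A floor of 3 fragments was used, about the upper 95% counting limit for a count of 0. It came to between 0.109 and 0.157 CPM (counts scaled to library size, with TMM factors). Pearson's r of log2 CPM across tested genes, which are not independent replicates, was 0.977 within 2xSCS2F10 and 0.994 within 2xSCS70. With replicate 1 or 2 of 2xSCS2F10 left out the genes past the threshold rose from 5888 to 9567 or 8957, and with replicate 1 or 2 of 2xSCS70 left out they numbered 850 or 889. The lines were compared with the edgeR quasi-likelihood test across all 14496 genes that passed its count minimum, with Benjamini-Hochberg adjustment and a threshold of 0.05. Of these, 40.6% differed between the lines, 18.8% higher and 21.8% lower in 2xSCS70. Of all calls 46.3% were thus higher in 2xSCS70, a share that was 63.8% with limma on log2(RPKM + 1). A difference past the threshold was thus common among all genes. Among the members, 6 were tested and 6 passed, 3 higher and 3 lower, with a median log2 fold change of -0.86 against 0.02 over all tested genes. The sign of that median turned with the setting, to 0.88 with halved counts, where 5 members were tested, and it was -0.02 with limma on log2(RPKM + 1). Of those 6, Uchl1 and Tubb3 passed the count minimum in both lines, a class in which 38.2% of all genes differed. The other 4 passed it only through the line in which they were higher, and nothing is read from their number or from the median.

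Uchl1, the ubiquitin C-terminal hydrolase of nerve cells (chr5:66676121-66687234 on mm10), was counted at 5419 and 4854 fragments in 2xSCS2F10 and at 460 and 279 in 2xSCS70. Per length these were 187 and 143 RPKM against 12.7 and 7.90 RPKM. Both libraries of 2xSCS2F10 thus stood far above both of 2xSCS70. Ranked by RPKM over all rows, Uchl1 was the 205th and 236th gene of the 2 libraries of 2xSCS2F10 and the 4889th and 6211th of those of 2xSCS70, so that it went from near the top of the transcriptome to a lower level that was still far above the floor. Scaled to library size, the level was 267 ± 16.7 CPM in 2xSCS2F10 and 14.1 ± 3.69 CPM in 2xSCS70 (SD, n = 2 libraries each). The log2 fold change was -4.24 (SE 0.23, edgeR quasi-likelihood adjusted p = 0.000688). It ranged from -4.54 to -3.90 over 14 other settings, each with an adjusted p between 5.4e-64 (DESeq2) and 0.0219 (edgeR without replicate 2 of 2xSCS70). Within 2xSCS70 the first library held 1.46 times the level of the second (95% counting interval 1.25 to 1.69), which is small beside the difference between the lines. The antisense gene Uchl1os overlaps the start of Uchl1 by 378 bases in GENCODE M21, and without strand in the libraries the reads of that stretch cannot be assigned to either gene.

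Relatives of Uchl1 that are made in most tissues differed less. Uchl3 was at 7.50 and 4.74 RPKM in 2xSCS2F10 and at 9.06 and 8.18 RPKM in 2xSCS70 (log2 0.28, edgeR adjusted p = 0.339), and Bap1, the nuclear tumour suppressor, was not past the threshold either (log2 0.14, edgeR adjusted p = 0.426). Uchl5, the proteasome-bound hydrolase, was higher in 2xSCS70, at 22.1 and 23.0 RPKM against 12.3 and 6.63 RPKM (log2 1.05, SE 0.24, edgeR adjusted p = 0.0255), a call that ended without replicate 1 (adjusted p = 0.133) or replicate 2 of 2xSCS70 (0.181). Uchl1 therefore made up 83.2% and 85.4% of the summed RPKM of these 4 hydrolases in 2xSCS2F10 and 19.3% and 13.8% in 2xSCS70. In the second line it was the third and the last of the 4 by level.

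Of all tested genes 40.6% differed between the lines, 18.8% higher and 21.8% lower in 2xSCS70, so 3161 genes were lower as Uchl1 was. Markers of mesothelium, the cell layer that covers the stomach, were lower too. All 8 genes of that list were lower in 2xSCS70 (8 and 7 without its replicate 1 or 2), and their summed level was 1415 and 1235 RPKM in 2xSCS2F10 against 49.1 and 39.4 RPKM in 2xSCS70. None of them was at 0 in every library. Smooth muscle markers moved the same way, with 6 of 7 tested genes lower (3 with either library of 2xSCS70 left out) and sums of 2304 and 3413 RPKM against 387 and 325 RPKM. Markers of enteric glia and Schwann cells summed to between 0.602 and 1.16 RPKM over all 4 libraries. Cdh19 was at 0 and Sox10 at 3, 0, 5 and 0 fragments (2xSCS2F10 first). Under 1 RPKM in every library, S100b was higher and Erbb3 lower in 2xSCS70 (edgeR adjusted p = 0.0201 and 0.0326). Those of neural stem cells summed to between 1.15 and 2.16 RPKM, with Sox2, Prom1 and Olig2 at 0. Msi1 was higher in 2xSCS70, at 1.48 and 1.38 RPKM against 0.664 and 0.590 RPKM (edgeR adjusted p = 0.0425). With the replicate number as a block its edgeR adjusted p was 0.0823. Nes was at 1.12 and 0.465 RPKM in 2xSCS2F10 and 0.628 and 0.414 RPKM in 2xSCS70 (edgeR adjusted p = 0.167). Markers of neuroendocrine cells, a list that holds Syp, summed to between 1.22 and 2.39 RPKM, with Neurod1, Scg3, Gast, Pcsk1 and Sst at 0. Ghrl made up most of that sum, at 1.05 and 1.48 RPKM in 2xSCS2F10 and 1.69 and 1.97 RPKM in 2xSCS70 (edgeR adjusted p = 0.614). Chgb was lower in 2xSCS70 where Syp was higher (edgeR adjusted p = 0.0458, and 0.104 with DESeq2). Fibroblast genes were led by the collagens Col1a1 and Col1a2 and the fibronectin Fn1. These collagens were lower in 2xSCS70 (log2 -1.02 and -3.76, edgeR adjusted p = 0.0361 and 0.00274), while Fn1 was not past the threshold (log2 0.15, edgeR adjusted p = 0.645). The list as a whole was abundant in every library and also lower in sum, at 5909 and 6790 RPKM in 2xSCS2F10 against 3858 and 3021 RPKM in 2xSCS70. Of 11 tested, 2 were higher and 5 lower (median log2 -1.02), and 1 was higher and 1 lower with either library of 2xSCS70 left out. Of the markers of the labelled cell type, Kit was at 0, 0, 0 and 1 fragment in this order, while Cd34 and Cd44, which mark its progenitors, were the most abundant, and the list summed to 65.6 and 39.9 RPKM in 2xSCS2F10 and 152 and 128 RPKM in 2xSCS70. Of its 6 tested genes 2 were higher (Cd34 and Cd44) and 2 lower (Ano1 and Igf1r, the latter with a log2 of -0.57 and an edgeR adjusted p of 0.0174), and 1 call, lower, was left with either library of 2xSCS70 left out. The part of any of these cell types in the level of Uchl1 was not tested.

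**Figure D2:**
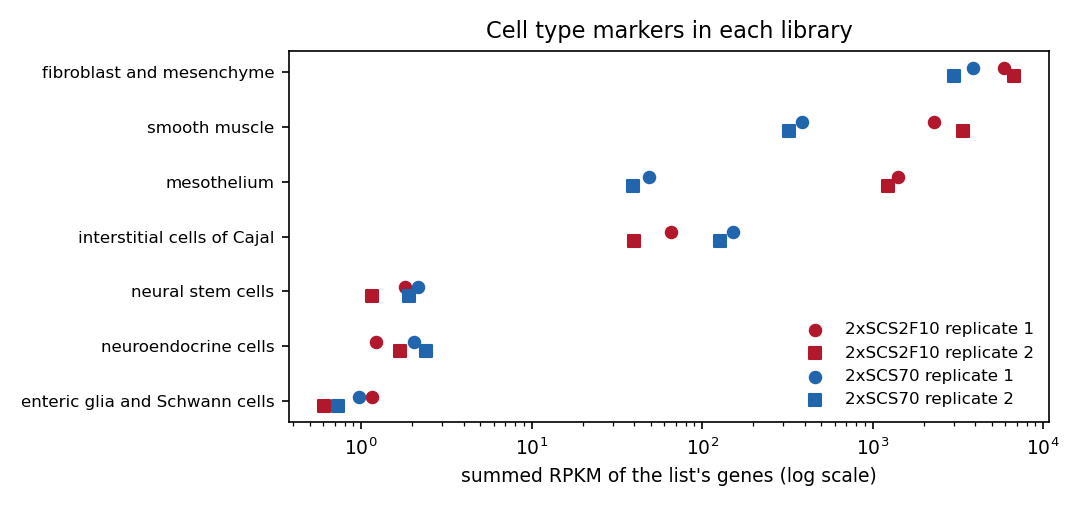
Summed RPKM (log axis) of the markers of 7 cell types in each library, with colours and shapes as in the plot of the members. Mesothelium and smooth muscle markers are lower in both 2xSCS70 libraries, and glial, neural stem cell and neuroendocrine markers stay at or below 2.39 RPKM in all 4.

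The 3 genes whose pattern over the 4 libraries was nearest to that of Uchl1, by distance between centred log2 CPM among 9193 tested genes that averaged 10 CPM or more, were Adamts14 (distance 0.04), Cpe (0.25) and Mst1r (0.32). Adamts14, a procollagen-processing protease, was counted at 399 and 361 fragments in 2xSCS2F10 and 34 and 20 in 2xSCS70. Cpe, the carboxypeptidase that trims neuropeptide precursors, went from 22407 and 18880 fragments to 1870 and 1369. Mst1r, a receptor tyrosine kinase, went from 729 and 834 fragments to 58 and 40. In total 66 genes lay within a distance of 1. With 4 libraries in 2 lines, the distance is set mainly by the size of the line difference.

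Syt1, the calcium sensor of synaptic vesicle fusion (chr10:108497650-109010975, minus strand), was counted at 69 and 71 fragments in 2xSCS2F10 and at 1 and 1 in 2xSCS70. These are 0.567 and 0.499 RPKM against 0.0066 and 0.0067 RPKM, so the gene was low in the first line and under the floor of 3 fragments in the second. The level in 2xSCS2F10 exceeded that in 2xSCS70 by a ratio of 94.3 (exact 95% interval 25.6 to 786, counting error only). The edgeR quasi-likelihood adjusted p was 0.000913, and it ran from 1.0e-14 to 0.0337 over 13 other settings. The 2 libraries of 2xSCS2F10 differed by a factor of 0.951 (interval 0.673 to 1.34), within counting error. Among the 17 synaptotagmins Syt1 to Syt17, Syt1 held 5.23% and 4.26% of the summed RPKM in 2xSCS2F10 and 0.079% and 0.093% in 2xSCS70, ranking 5th in the first line and 12th and 13th in the second. Syt11, which does not bind calcium in the way of Syt1, led the family in all 4 libraries. A gene inside Syt1 in the deposited tables, Gm5136, held 0, 0, 0 and 1 fragments.

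The other vesicle members were rarer. Syp, the vesicle membrane protein synaptophysin (chrX:7638580-7653256), was counted at 2 and 1 fragments in 2xSCS2F10 and at 19 and 25 in 2xSCS70, or 0.032 and 0.014 RPKM against 0.243 and 0.327 RPKM. Its level was higher in 2xSCS70 by a ratio of 10.9 (exact 95% interval 3.49 to 54.8, counting error only). The edgeR adjusted p was 0.0104. The call ended without replicate 1 (adjusted p = 0.0716) or replicate 2 of 2xSCS70 (0.0956), and over 13 settings the adjusted p ran from 0.00011 to 0.0956. Its relative Sypl, synaptophysin-like protein, was at 15.7 and 16.5 RPKM in 2xSCS2F10 and 14.9 and 15.2 RPKM in 2xSCS70 and was not past the threshold (log2 -0.34, edgeR adjusted p = 0.149). Syp reached 2.10% of the sum of both genes at most, in replicate 2 of 2xSCS70. In GENCODE M21 the antisense gene Gm14703 overlaps the last 2151 bases of Syp, which the counting could not separate without strand.

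Snap25, the SNARE protein of the neuronal plasma membrane (chr2:136713450-136782428), was counted at 7, 5, 1 and 2 fragments, 2xSCS2F10 first, and did not pass the count minimum. Both libraries of 2xSCS2F10 were above the floor of 3 fragments and both of 2xSCS70 below it, with a ratio of 5.39 (exact 95% interval 1.45 to 29.8, counting error only). It held at most 0.154% of the summed RPKM of Snap25, Snap23, Snap29 and Snap47, the SNAP proteins. Snap47 and Snap23, the latter known for fusion outside neurons, held most of that sum and were lower in 2xSCS70, with log2 fold changes of -0.93 for Snap47 (edgeR adjusted p = 0.00484) and -0.65 for Snap23 (edgeR adjusted p = 0.0245). Without replicate 1 of 2xSCS70 the adjusted p of Snap47 was 0.0846 and that of Snap23 0.207, and without replicate 2 they were 0.0938 and 0.173.

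Tubb3, the beta tubulin of neuronal microtubules (chr8:123411564-123422010), was the only cytoskeletal member above 1 RPKM. It was counted at 91 and 77 fragments in 2xSCS2F10 and at 237 and 181 in 2xSCS70, or 2.09 and 1.51 RPKM against 4.37 and 3.41 RPKM. The level was 4.36 ± 0.448 CPM against 8.02 ± 0.820 CPM (SD, n = 2 libraries each). The log2 fold change was 0.88 (SE 0.21, edgeR quasi-likelihood adjusted p = 0.0289). The call ended without replicate 1 (adjusted p = 0.247) or replicate 2 (0.175) of 2xSCS70 and in a test against a 1.5-fold change (0.151), and over 14 settings the adjusted p ran from 0.00011 to 0.247. Among 7 beta tubulins Tubb3 held 0.304% and 0.362% of the summed RPKM in 2xSCS2F10 and 0.605% and 0.562% in 2xSCS70. The general isotype Tubb5 led the family in all 4 libraries, with 403 and 242 RPKM against 392 and 332 RPKM, and was not past the threshold (log2 -0.05, edgeR adjusted p = 0.864; 0.21 on log2(RPKM + 1)). Beta tubulin genes are alike in sequence, so reads may have been split among them. A read-through gene, Gm20388, spans Tubb3 on the same strand in GENCODE M21.

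Prph, or peripherin, the intermediate filament of peripheral and enteric nerve cells (chr15:99055174-99058978), was counted at 3 and 6 fragments in 2xSCS2F10 and at 48 and 34 in 2xSCS70. These are 0.064 and 0.109 RPKM against 0.818 and 0.592 RPKM. The level was 0.235 ± 0.114 CPM against 1.57 ± 0.243 CPM (SD, n = 2 libraries each; log2 2.73, SE 0.47, edgeR quasi-likelihood adjusted p = 0.0113). The call ended without replicate 1 (adjusted p = 0.109) or replicate 2 of 2xSCS70 (0.0889), and over 13 settings the adjusted p ran from 5.9e-06 to 0.109. The neurofilament subunits were all but missing. Nefl (chr14:68083884-68087737) had 0 fragments in all 4 libraries and Nefm (chr14:68119545-68125004, minus strand) had 0, 0, 0 and 1. The floor of 3 fragments for a count of 0 is, for Nefl, between 0.048 and 0.059 RPKM. Vim, the filament protein of mesenchymal cells, stood at 904 and 569 RPKM in 2xSCS2F10 and 873 and 705 RPKM in 2xSCS70 (log2 -0.12, edgeR adjusted p = 0.659; 0.13 on log2(RPKM + 1)), and Prph held at most 0.093% of the sum of 7 filament genes that included Vim.

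Gap43, a growth cone protein (chr16:42248561-42340651, minus strand), was counted at 21 and 7 fragments in 2xSCS2F10 and at 2 and 4 in 2xSCS70, or 0.640 and 0.182 RPKM against 0.0489 and 0.0999 RPKM. Replicate 1 of 2xSCS2F10 held 2.94 times the level of replicate 2 (interval 1.20 to 8.18). The log2 fold change was -2.60 (SE 0.77, edgeR quasi-likelihood adjusted p = 0.0484), and the ratio of pooled fragments was 6.29 (exact 95% interval 2.55 to 18.6). This call was at the edge of the threshold and was lost in 8 of 12 settings, with an adjusted p between 2.1e-05 and 0.258. Without replicate 1 of 2xSCS2F10 the log2 fold change was -1.65 (adjusted p = 0.0612), without replicate 1 of 2xSCS70 the adjusted p was 0.258, and without its replicate 2 it was 0.164. With the replicate number as a block it was 0.0756. The 12 settings leave out halved counts and the filter at a mean of 5 CPM, where Gap43 was not tested. It thus passed the count minimum only with each fragment counted as 2. Basp1 and Marcks, membrane proteins related to Gap43 in function, stood between 54.1 and 103 RPKM in the 4 libraries, and Gap43 held at most 0.261% of the sum of these and Marcksl1. Stmn2, which loosens microtubules in growth cones (chr3:8509527-8561604), had 0 fragments in all 4 libraries, a limit of between 0.050 and 0.062 RPKM. Its general relative Stmn1 was at 102 and 39.5 RPKM in 2xSCS2F10 and 108 and 97.0 RPKM in 2xSCS70 (log2 0.35, edgeR adjusted p = 0.469).

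**Figure D3:**
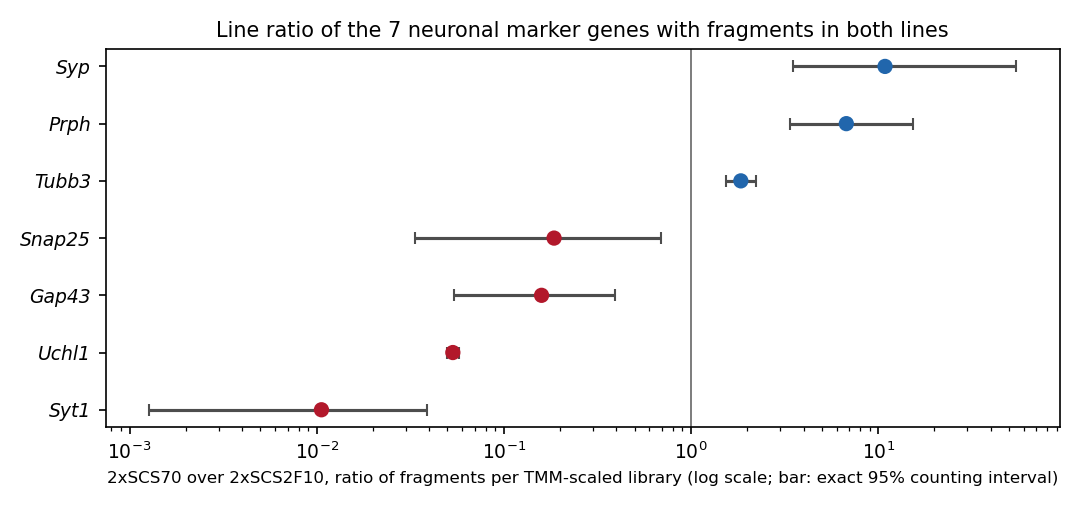
Ratio of 2xSCS70 over 2xSCS2F10 (log axis) in fragments per TMM-scaled library for the 7 members with fragments in both lines, red below 1 and blue above, with exact 95% intervals that cover counting error only. Syt1 lies lowest and has a wide interval because 2 fragments were counted in 2xSCS70, Uchl1 has the narrowest one, and Tubb3, Prph and Syp lie above 1.

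In order of RPKM, the 7 members with fragments in both lines ran in 2xSCS2F10 from Uchl1 through Tubb3 to Syt1 and Gap43, whose libraries overlapped, then to Snap25 and Prph, which also overlapped, and to Syp. In 2xSCS70 the order was Uchl1, Tubb3, Prph, Syp, Gap43, Snap25 and Syt1, with no overlap between the libraries of neighbours. There Gap43 (2 and 4 fragments), Snap25 (1 and 2) and Syt1 (1 and 1) lay near or under the floor of 3 fragments. At such counts RPKM depends strongly on gene length (1301, 2119 and 4820 bases), so the order of Gap43, Snap25 and Syt1 cannot be told. Prph and Syp thus ranked above Syt1, Gap43 and Snap25 in the second line and below them in the first, apart from the overlap of Prph with Snap25. Of the 8 members set beside relatives, Uchl1 in 2xSCS2F10 was the only one to hold the larger share of its group.

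**Figure D4:**
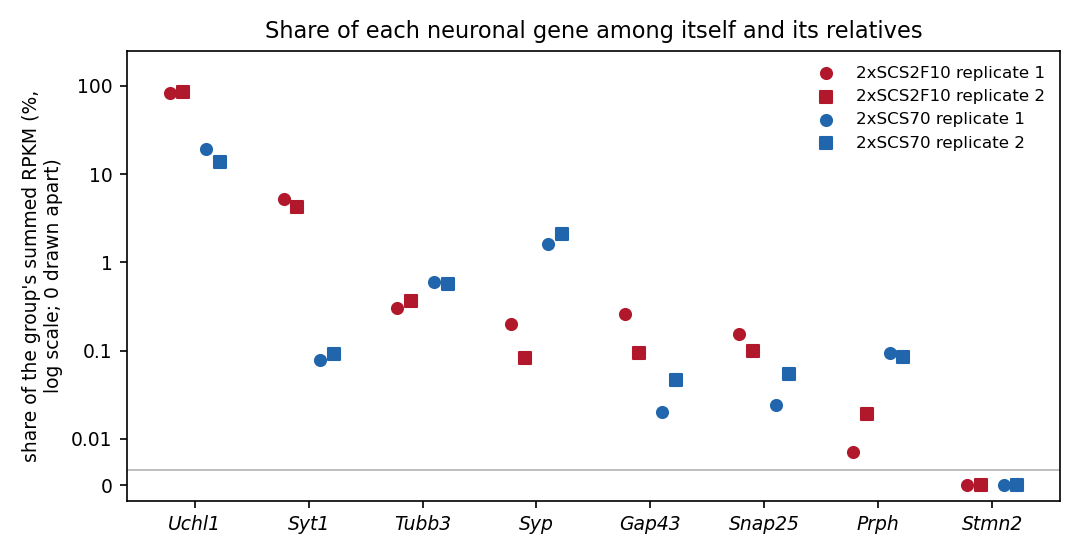
Share (%, log axis, with 0 drawn apart) of each member in the summed RPKM of itself and its relatives, in each library, with colours and shapes as in the plot of the members. Uchl1 holds 83.2% and 85.4% in 2xSCS2F10, Syt1 at most 5.23%, and Stmn2 0 in all 4 libraries.

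Other genes were read from 7 lists, called the neuronal lists here. They include 12 genes of REST and its partners and 15 widely expressed relatives of the members. The lists held 171 symbols, of which 166 had a row (Map1a, Map1b, Map2, Map6 and Sptbn4 were not matched by symbol). Of these, 118 were tested, and 27 were higher and 31 lower in 2xSCS70, with a median log2 fold change of 0.08. That is 49.2% of those tested, against 40.6% of all genes. Among the 86 genes that passed the count minimum in both lines it was 39.5%, against 38.2% of all genes, a share near the background. By list it ran from 26.7% of the 15 widely expressed relatives to 75.0% of 4 enteric neuron genes, so it is not a share of neuronal genes alone. Without replicate 1 or without replicate 2 of 2xSCS70 the number of calls was 13.

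Of 23 tested genes of the synaptic vesicle and its release, 4 were higher and 6 lower (median log2 -0.12), and 1 or 2 calls were left with replicate 1 or 2 of 2xSCS70 left out. Among the 16 of them that passed the count minimum in both lines, 3 were higher and 2 lower and the median was 0.22. Dnm1, the dynamin of synaptic vesicle retrieval, was higher in 2xSCS70, at 23.2 and 19.3 RPKM against 7.12 and 6.63 RPKM (log2 1.38, edgeR adjusted p = 0.00234), but not without replicate 1 of 2xSCS70 (adjusted p = 0.0553). Syn1, which tethers vesicles, was lower (log2 -1.60, edgeR adjusted p = 0.0072), as was the vesicle chaperone Dnajc5 (log2 -0.65, edgeR adjusted p = 0.0152), but neither without replicate 1 (0.0993 and 0.161) or replicate 2 (0.104 and 0.180) of 2xSCS70. Vamp2 and Stx1a, the SNARE partners of Snap25, were chosen after their values were seen. Vamp2 stood at 8.77 and 7.98 RPKM in 2xSCS2F10 and 15.5 and 13.8 RPKM in 2xSCS70 (log2 0.57, edgeR adjusted p = 0.0224, and 0.207 or 0.203 with replicate 1 or 2 of 2xSCS70 left out). Stx1a was between 2.27 and 4.43 RPKM and was not past the threshold (edgeR adjusted p = 0.239).

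Of 16 tested synaptotagmins and synaptotagmin-like genes other than Syt1, 4 were higher and 7 lower (median log2 -0.88). Among the 9 of them that passed the count minimum in both lines, 2 were higher and 3 lower and the median was -0.30. Syt13 was the reverse of Syt1, with 0 fragments in both libraries of 2xSCS2F10 and 261 and 196 in 2xSCS70, at least 56.2-fold higher against a floor of 3 fragments per library (edgeR adjusted p = 0.00129). Sytl2, a Rab effector of secretory granules, was higher (log2 1.94, edgeR adjusted p = 0.00157). Syt11 was lower, at 2.63 and 2.06 RPKM against 5.79 and 5.51 RPKM (log2 -1.51, edgeR adjusted p = 0.00295), and so was Sytl1 (log2 -3.40, edgeR adjusted p = 0.00598). The calls of Syt11 and Sytl1 ended without replicate 1 (adjusted p = 0.0558 and 0.0611) or replicate 2 of 2xSCS70 (0.0643 and 0.0745), and the list then held 3 and 2 calls.

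Of 29 tested genes of the neuronal cytoskeleton and growth cone, 6 were higher and 9 lower (median log2 -0.05), and 5 calls were left with either library of 2xSCS70 left out. Among the 22 of them that passed the count minimum in both lines, 3 were higher and 6 lower and the median was -0.06. Gpm6a, a membrane glycoprotein of neurites that the mesothelium list also holds, went from 5111 and 5005 fragments in 2xSCS2F10 to 7 and 1 in 2xSCS70 (log2 -10.72, SE 0.51, edgeR adjusted p = 0.000542). Dpysl5, a collapsin response mediator of axon guidance, was at 6.01 and 6.32 RPKM against 0.392 and 0.336 RPKM (log2 -4.33, SE 0.19, edgeR adjusted p = 0.00049). Tubb2b, a beta tubulin of developing neurons, was lower where Tubb3 was higher, at 7.59 and 6.81 RPKM against 26.6 and 19.8 RPKM (log2 -1.92, SE 0.13, edgeR adjusted p = 0.00115). Ank3, which builds the axon initial segment, was higher in 2xSCS70 (log2 2.02, SE 0.13, edgeR adjusted p = 0.001). These 4 genes stayed past the threshold with either library of 2xSCS70 left out.

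Of 18 tested genes of neuronal RNA binding and secretion, 5 were higher and 4 lower (median log2 0.22). Among the 10 of them that passed the count minimum in both lines, 1 was higher and 3 lower and the median was -0.11. Cpe was at 28.4 and 21.2 RPKM in 2xSCS70 against 424 and 305 RPKM in 2xSCS2F10 (log2 -4.11, SE 0.18, edgeR adjusted p = 0.00049). Vgf, a neuropeptide precursor, was lower too (log2 -3.37, edgeR adjusted p = 0.00315, and 0.0546 without replicate 2 of 2xSCS70). Eno2, the neuronal enolase, was higher, at 8.66 and 7.95 RPKM against 1.01 and 2.21 RPKM (log2 2.07, SE 0.46, edgeR adjusted p = 0.0223, and 0.132 and 0.134 with either library of 2xSCS70 left out). Of 26 genes of enteric neuron development and transmitters, 7 were tested, and 2 were higher and 3 lower (median log2 0.26). Among the 4 of them that passed the count minimum in both lines, 1 was higher and 2 lower and the median was -0.55. Nos1, the neuronal nitric oxide synthase of inhibitory enteric neurons, had 0 and 1 fragments in 2xSCS2F10 and 741 and 788 in 2xSCS70, a ratio of 1135 (exact 95% interval 203 to 44856; edgeR adjusted p = 0.000635). Gdnf, the growth factor of enteric neuron precursors, was higher (log2 2.68, edgeR adjusted p = 0.0092), and the amine-producing enzyme Ddc (log2 -4.37, edgeR adjusted p = 0.000953) and the transcription factor Hand2 (log2 -2.24, edgeR adjusted p = 0.0088) were lower. With either library of 2xSCS70 left out, the calls of Gdnf (adjusted p = 0.0890 and 0.0787) and Hand2 (0.0989 and 0.102) were lost, and each of these 2 lists held at most 2 calls.

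All 12 genes of the REST list were tested, 5 were higher in 2xSCS70 and the other 7 were not past the threshold (median log2 0.30). The share called was 41.7%, near the 38.2% of all genes that passed the count minimum in both lines. Higher calls alone were 18.8% of all tested genes, and the list was chosen with earlier results of these data known. Rest itself was at 9.37 and 11.3 RPKM in 2xSCS2F10 and 13.8 and 13.5 RPKM in 2xSCS70 and was not past the threshold (log2 0.14, SE 0.20, edgeR adjusted p = 0.597). Rcor2, a CoREST protein, was at 20.5 and 17.1 RPKM against 6.57 and 5.33 RPKM (log2 1.43, SE 0.13, edgeR adjusted p = 0.00218), its relative Rcor1 was higher (log2 0.68, edgeR adjusted p = 0.0148), and so were the deacetylase Hdac1 (log2 0.44, edgeR adjusted p = 0.0382) and the scaffold Sin3a (log2 0.41, edgeR adjusted p = 0.045). Without replicate 1 of 2xSCS70 these 5 calls were lost, with Rcor2 at an edgeR adjusted p of 0.0562, and without replicate 2 they were lost but for that of Rcor2 (0.0490). With the replicate number as a block 3 of the 12 were past the threshold, with Hdac1 at an edgeR adjusted p of 0.067, and against a 1.5-fold change 1 was, Rcor2. Of 15 widely expressed relatives of the members, 1 was higher (Uchl5) and 3 were lower (Snap47, Snap23 and Basp1), with a median log2 of -0.09, and these 4 calls were lost with either library of 2xSCS70 left out. All 15 reached 1 RPKM in both libraries of both lines, against 2 of the 10 members.

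**Figure D5:**
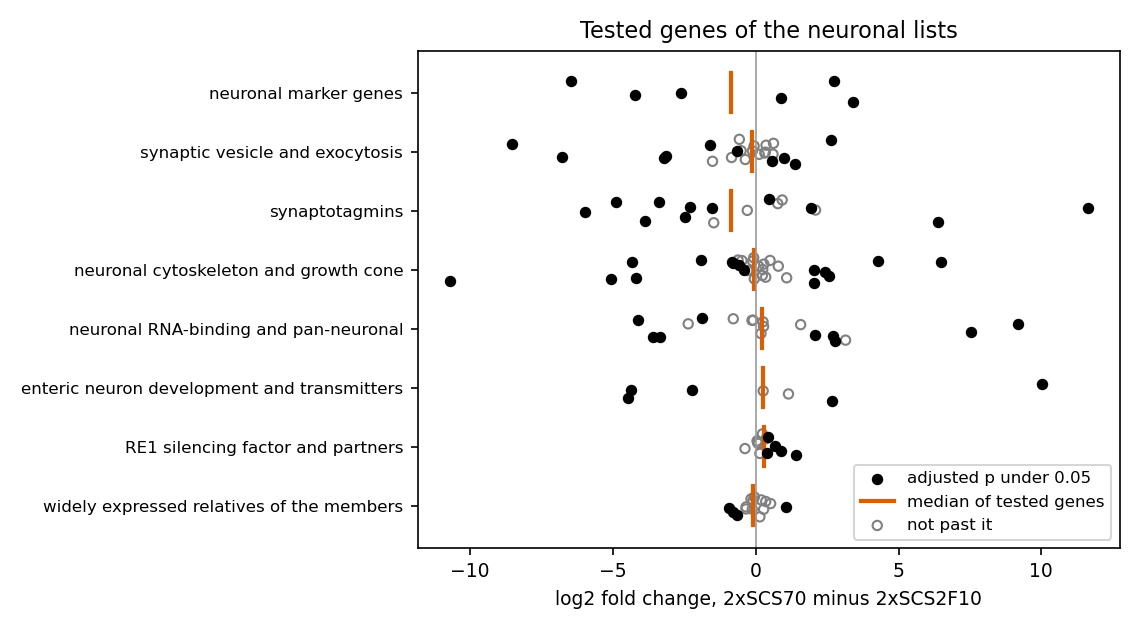
Log2 fold change, 2xSCS70 minus 2xSCS2F10, of the tested members and of the tested genes of the 7 neuronal lists, filled where the edgeR adjusted p was under 0.05, with the median of each list in orange. Fitted values of genes with few or 0 fragments in 1 line, such as Syt13, depend on the prior count, and every list but that of the REST partners has calls on both sides of 0.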

How the data were processed

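Polyadenylated RNA of 2 lines, with 2 libraries each, was sequenced on an Illumina instrument after a TruSeq mRNA kit that does not mark strand, per the labels' protocols. Tools named in the submitters' processing notes are TopHat2 2.0.6, Bowtie and HTSeq, on the build mm10, while for the annotation the tool counted on, none is named (not given in the sources used here). Raw gene-level counts of 23358 rows were deposited by the authors. RPKM, which divides these by gene length and by library reads (50468212 to 62928743), were deposited beside them, per the file headers. Of the gene names of replicate 1, 25 that had become dates were read from the replicate 2 tables instead, and 69 rows with a shared name were separated by position. No row of a member was among them.

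Counts were fitted with edgeR 4.0.16 in R 4.3.3 (TMM, filterByExpr, line as the only term), and 8862 rows were not tested. Changes are 2xSCS70 minus 2xSCS2F10, and the SE was derived from the log2 fold change and its F statistic (their quotient, with the root of F). The common biological coefficient of variation was 20.4%. Ratios with exact 95% intervals used fragments scaled by the TMM library sizes and cover counting error only. Alternatives are given in the closing section. They were a replicate block, 2 other scalings, 2 other filters, each library left out with the same genes tested, DESeq2 1.42.0, halved counts, limma 3.58.1 on log2(RPKM + 1) and log2(RPKM + 0.1), and a 1.5-fold threshold. By their sample numbers, the replicate 1 libraries of both lines appear to have been entered together, and likewise those of replicate 2. Whether the replicate number marks a batch is not stated in the labels. Deviations of same-numbered libraries from the line means correlated at 0.05. The main fit did not pair them, and the replicate block was run as an alternative. The members and lists were chosen with earlier results of these data known. Named were all members, up to 4 called genes per neuronal list by adjusted p with a mean of at least 1 RPKM in 1 line, up to 3 abundant markers per cell type with those at 0, and the 3 genes nearest to Uchl1. Some genes that this rule would name are not reported here. Python 3.11.15 with pandas 2.3.3, scipy 1.17.1 and matplotlib 3.10.9 made the tables and plots.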

Additional observations from a re-analysis of the deposited data

How the results depend on the processing

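Of 5888 genes called, 3094 were called against a 1.5-fold change, and between 850 and 9567 with 1 library left out (fewest without replicate 1 of 2xSCS70). Of the 6 members called, 2 were tested and called with a filter at a mean of 5 CPM, and between 2 and 6 with 1 library left out. With either 2xSCS70 library left out, only Uchl1 and Syt1 were called. Of 58 neuronal list genes, 29 were called with that filter and between 13 and 82 with 1 library left out. In 2xSCS2F10, 1 member reached a limit of 2 RPKM in both libraries, in place of 2 at 1 RPKM. With the replicate block 5222 genes, 5 members and 52 neuronal list genes were called, and Gap43 was the member lost. No tested member changed direction under any alternative run, but the median of the tested members ran from -1.64 to 0.88, and of the 7 neuronal lists only that of REST and its partners kept the sign of its median. On RPKM values the share of calls that were higher in 2xSCS70 was 63.8% (log2(RPKM + 1)) and 63.2% (log2(RPKM + 0.1)) of all genes against 46.3% on counts, and 57.1% and 54.5% of the neuronal list genes against 46.6%. The median log2 change of all tested genes was 0.15 and 0.25 on these values and 0.11 with upper quartile scaling, against 0.02.

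With 2 libraries per line the spread is poorly known for every test, and a fit with 1 left out lends the lone library the spread of the other line. Depth limits Snap25, Nefl, Nefm and Stmn2, whose floors of 3 fragments lay between 0.0295 and 0.0624 RPKM.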
